A study of Mus musculus with 2 samples.

Results

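The iron handling genes are 9 genes that carry, take up, store, export or regulate iron in the liver: Hamp, Hamp2, Trf, Tfrc, Tfr2, Fth1, Ftl1, Slc40a1 and Cp. They were picked by symbol among the 32285 genes of the count tables, and all 9 were found in both tables. Their levels are described in 2 liver sections, by diet and by position within the liver lobule.

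The study asked how cells are arranged in the fatty liver and used the 10x Visium assay, which counts captured RNA molecules, each by its unique molecular identifier (UMI), on a slide of barcoded spots that can each cover several cells. It gives 1 section of 10 µm from a mouse on normal chow diet (NCD) and 1 from a mouse on high-fat diet (HFD, with 60% fat). Both were male C57BL/6J mice bought at 5 weeks of age, kept for 1 week before the diets, fed for 14 weeks and then given distilled water by mouth for a further 8 weeks as the untreated groups of a drug study. Each liver was perfused before collection, and the 2 mice were picked at random from their groups.

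The NCD section held 29037988 UMIs in 3692 spots over tissue, with a median of 4187.5 UMIs per spot. The HFD section held 72118803 UMIs in 3594 spots, with a median of 18549, and was thus the deeper of the pair. Levels are therefore given as UMIs of a gene per 1000000 UMIs (CPM), and shares of spots are given after spots were drawn down to equal depth. With 1 section per diet, the effect of diet cannot be told apart from that of animal, section or slide. No test across diets could be made, and every 95% interval below covers counting error only. The sections used the same set of slide barcodes, and 3173 barcodes were called over tissue in both.

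The labels give the tissue as liver, the cell line as hematopoietic stem cell and the cell type as immune cell. The 6 hepatocyte markers (Alb, Ttr, Apoa1, Apoa2, Apoc3 and Fgb) summed to 107442 CPM in NCD and 121159 CPM in HFD. The 6 hematopoietic stem cell markers summed to 27.8 CPM and 38.1 CPM, most of it from Hlf at 21.2 CPM and 28.7 CPM. Flt3 stood at 0.413 CPM in NCD and 0.818 CPM in HFD, and 8 leukocyte markers summed to 31.5 CPM and 28.1 CPM. The RNA was thus mostly that of liver tissue, and the other cell labels were not borne out by these markers.

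Iron travels in blood bound to transferrin, enters cells through transferrin receptors and is kept inside ferritin, a shell built of heavy and light chains. Iron leaves cells through ferroportin, and the liver hormone hepcidin blocks that export by binding ferroportin and causing its breakdown. Hepatocytes make hepcidin, transferrin and ceruloplasmin, and liver macrophages recover iron from red blood cells and release it through ferroportin.

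Between the sections, the hepcidin gene Hamp and the ferroportin gene Slc40a1 were lower in HFD, and the genes for the second hepcidin peptide, transferrin, its first receptor, the ferritin light chain and ceruloplasmin were higher. At a threshold of 1.5-fold, 5 of the 9 genes were higher in HFD and 2 were lower, and the other 2, Tfr2 and Fth1, were within it. Of the 11913 genes that had 100 UMIs or more in total, 25.5% were at least 1.5-fold higher in HFD and 5.01% were at least 1.5-fold lower. The median log2 ratio of HFD to NCD was 0.79 over the 9 genes and 0.24 over all 11913 genes. A value of 0.24 is thus the level from which the ratios depart, and with ratios centred on it Trf stood at 0.55 on the log2 scale and was no longer past 1.5-fold. Together the 9 genes made up 2.05% of all UMIs in NCD and 2.90% in HFD.

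**Figure D1:**
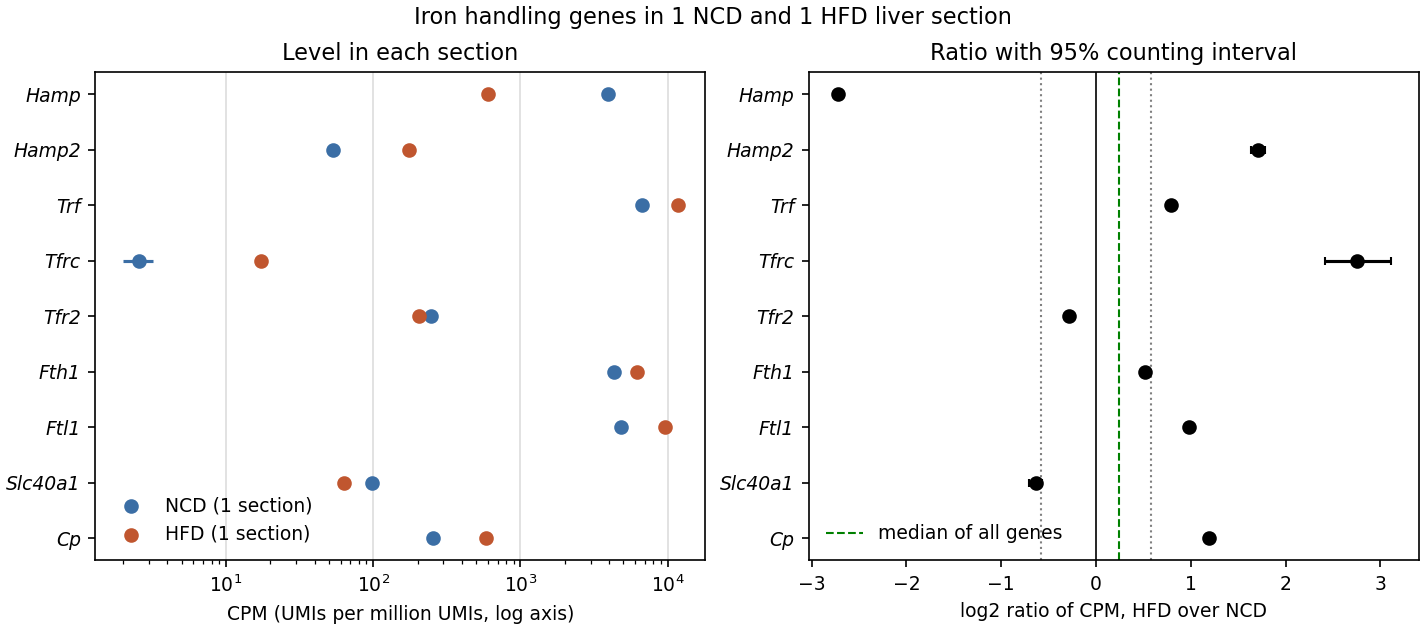
Levels of the 9 iron handling genes in each section in CPM on a log axis (left) and the log2 ratio of HFD to NCD (right), with 95% counting intervals drawn where they are wider than the points; dotted lines mark 1.5-fold and the dashed line the median of all genes at 0.24. Hamp lies at the far left of the ratios at -2.72 and Tfrc at the far right at 2.75.

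Hamp encodes hepcidin, the hormone of iron balance. It measured 3949 CPM (95% interval 3927 to 3972) in NCD and 598.5 CPM (592.9 to 604.2) in HFD. The NCD section was 6.60-fold higher (95% interval 6.53 to 6.67), a log2 ratio of -2.72, and the counting intervals were far apart. In the order of all 11913 genes by this ratio, Hamp was the 34th from the lowest. The 5 markers of red blood cells were also lower in HFD, 4 of 5 by at least 1.5-fold, where 5.01% of all genes were, with a summed level of 6738 CPM in NCD and 1292 CPM in HFD, led by Hbb-bs at 3104 CPM and 606.6 CPM. The part of blood in the difference of Hamp was not tested. In each section, a lower level can come from fewer cells that express a gene or from less RNA per cell, which these counts cannot tell apart.

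Hamp2 encodes a second mouse hepcidin peptide, which does not share the action of hepcidin on iron. It measured 53.2 CPM (50.6 to 55.9) in NCD and 173.9 CPM (170.8 to 176.9) in HFD. It was 3.27-fold higher in HFD (log2 ratio 1.71), opposite in direction to its neighbour. As a share of the UMIs of both genes, Hamp2 held 1.33% (Clopper-Pearson 95% interval 1.26 to 1.40) in NCD and 22.5% (22.2 to 22.9) in HFD. The sum of both genes was 4003 CPM in NCD and 772.4 CPM in HFD. Their summed level was thus lower in HFD as well.

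The pair is hard to separate by sequence. Hamp lies at chr7:30942368-30944032 and Hamp2 at chr7:30922372-30924681, both on the minus strand of GRCm38 in GENCODE M21, 17686 bases apart with 1 annotated gene, Usf2-ps1, between them. The Hamp transcript of 410 bases matched 3 annotated Hamp2 transcripts at 92.6%, 89.0% and 76.3% of aligned columns, with identical runs of up to 87 bases. A read of Hamp that lies inside such a run also matches Hamp2. The level of Hamp2 is therefore uncertain, above all in NCD, where Hamp had 114682 UMIs and Hamp2 1545 UMIs. In HFD, where Hamp had 43165 UMIs, Hamp2 had 12539 UMIs.

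The promoters of the pair are shown because the genes moved in opposite directions. RefSeq promoters on GRCm38.p6 were found for 7 of the 9 genes, 12 promoters in all, and each was searched on both strands over the 250 bases before the start for GGCGCC, letters found in elements that respond to bone morphogenetic proteins (BMPs), and for TTCNNNGAA, letters bound by STAT factors. These motifs share no bases in the sequences shown, where capitals mark the matches.
Hamp, chr7:30944030-30944279, minus strand: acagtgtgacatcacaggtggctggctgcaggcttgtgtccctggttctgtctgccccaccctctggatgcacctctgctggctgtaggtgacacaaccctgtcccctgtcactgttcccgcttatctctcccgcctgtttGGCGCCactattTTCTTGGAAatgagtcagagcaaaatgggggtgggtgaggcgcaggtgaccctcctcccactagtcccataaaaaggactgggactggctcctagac
Hamp2, chr7:30924182-30924431, minus strand: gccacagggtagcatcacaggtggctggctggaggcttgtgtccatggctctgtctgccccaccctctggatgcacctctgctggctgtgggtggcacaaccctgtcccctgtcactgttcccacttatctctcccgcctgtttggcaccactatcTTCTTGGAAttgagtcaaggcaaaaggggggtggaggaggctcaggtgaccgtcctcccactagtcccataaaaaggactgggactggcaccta
Hamp held 1 GGCGCC that begins 109 bases before the start and 1 TTCNNNGAA that begins at 97 bases. Hamp2 held 1 TTCNNNGAA that begins at 94 bases and no GGCGCC, and the letters aligned to it were GGCACC. The upstream sequences of the pair matched at 89.7% of 253 aligned columns. GGCGCC was in 9.59% and TTCNNNGAA in 7.02% of 32851 promoters of the same length, and each was in 2 of the 12 promoters of the 9 genes. The other GGCGCC was in a promoter of Tfrc, a gene that was higher in HFD, unlike Hamp. The relation of these letters to the levels was not tested. A match describes letters only.

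Trf encodes transferrin, the iron carrier of plasma. It measured 6726 CPM (6696 to 6756) in NCD and 11658 CPM (11633 to 11682) in HFD, which was 1.73-fold higher (log2 ratio 0.79). Tfrc encodes transferrin receptor 1, the main uptake route of dividing cells and red blood cell precursors. It had 74 UMIs in NCD, or 2.55 CPM (2.0 to 3.2), and 1240 UMIs in HFD, or 17.2 CPM (16.3 to 18.2). Tfrc was 6.75-fold higher in HFD (95% interval 5.33 to 8.65), the widest interval of the 9 genes because of the low count in NCD. Its log2 ratio of 2.75 was 3.77 once the 1% of spots richest in Tfrc were left out, a step that by construction takes a larger part of its UMIs in NCD, where 1.90% of spots held any, and 2.24 in spots with 10000 to 20000 UMIs in both sections, a comparison chosen after seeing the data. Tfr2 encodes transferrin receptor 2, an iron sensor of hepatocytes. It measured 247.9 CPM (242.2 to 253.7) in NCD and 203.7 CPM (200.4 to 207.0) in HFD. It was 1.22-fold lower in HFD (log2 ratio -0.28), within the threshold of 1.5-fold.

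Fth1 encodes the ferritin heavy chain, which oxidises iron on its way into the shell. It measured 4296 CPM (4272 to 4320) in NCD and 6153 CPM (6135 to 6171) in HFD, 1.43-fold higher (log2 ratio 0.52). Ftl1 encodes the ferritin light chain, which helps to lay down the mineral core. It measured 4851 CPM (4826 to 4876) in NCD and 9551 CPM (9529 to 9574) in HFD, 1.97-fold higher (log2 ratio 0.98). The light chain passed 1.5-fold and the heavy chain did not, and with ratios centred on the median of all genes the heavy chain stood at 0.27. Since each UMI stands for 1 molecule, their ratio can be formed: there were 1.13 UMIs of Ftl1 per UMI of Fth1 in NCD (1.12 to 1.14) and 1.55 in HFD (1.55 to 1.56). The ratio was higher in HFD at each of 3 lobule positions. Ferritin genes have many copies in the mouse genome: the transcripts of Ftl1 share a run of at least 50 bases with those of 15 other annotated genes, 8 of them processed pseudogenes, and those of Fth1 with 1. Among these only Ftl1-ps1 is in the count tables, with a shared run of 524 bases and 3171 UMIs in NCD and 10715 UMIs in HFD, so the levels of the ferritin genes are uncertain by reads that fit several copies. Trf shares such runs with 31 annotated genes, of at most 72 bases except for Gm20425, which is not in the tables, Tfr2 with 2 genes, and Tfrc, Slc40a1 and Cp with none.

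Slc40a1 encodes ferroportin, the iron exporter. It measured 98.1 CPM (94.5 to 101.8) in NCD and 63.1 CPM (61.3 to 65.0) in HFD. It was 1.55-fold lower in HFD (95% interval 1.48 to 1.63, log2 ratio -0.64), an interval that reaches across the threshold of 1.5-fold. In the spots with 10000 to 20000 UMIs, its log2 ratio was -0.47 and it was within the threshold. Cp encodes ceruloplasmin, a plasma copper protein that oxidises iron as it leaves cells. It measured 254.4 CPM (248.6 to 260.2) in NCD and 582.2 CPM (576.6 to 587.8) in HFD, 2.29-fold higher (log2 ratio 1.19). Among the genes for iron release, the exporter was thus lower in HFD and the oxidase higher.

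Several marker lists differed between the sections, and their part in the differences above was not tested. The 6 acute phase genes, mostly products of hepatocytes, summed to 1883 CPM in NCD and 3015 CPM in HFD. Of these, 4 of 6 were at least 1.5-fold higher, where 25.5% of all genes were. The most abundant, Itih4, was within 1.5-fold at 863.1 CPM and 1212 CPM, and Saa1 stood at 106.6 CPM and 528.9 CPM. The 6 markers of lipid-associated macrophages summed to 70.4 CPM and 286.7 CPM, with 6 of 6 at least 1.5-fold higher, led by Spp1 at 43.5 CPM and 186.8 CPM. The 8 Kupffer cell markers summed to 421.4 CPM and 555.0 CPM. They were split, with 2 of 8 at least 1.5-fold higher, near the 25.5% of all genes, and 3 lower, where 5.01% of all genes were. C1qb was the most abundant marker of this list in HFD at 138.8 CPM against 81.6 CPM in NCD. Timd4 stood at 7.89 CPM in NCD and 0.874 CPM in HFD and Marco at 14.1 CPM and 1.54 CPM. The markers of sinusoidal endothelium summed to 162.9 CPM and 259.0 CPM, those of stellate cells to 221.2 CPM and 454.5 CPM, and those of bile ducts to 6.44 CPM and 13.6 CPM. These lists had higher sums in HFD, and only the leukocyte and red blood cell lists had lower ones. The leukocyte list was also split, with 1 of 8 genes at least 1.5-fold higher and 3 lower, beside 25.5% and 5.01% of all genes. Its gene Ptprc stood at 6.61 CPM in NCD and 10.7 CPM in HFD.

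The spots differed in depth, so spots with at least 3000 UMIs were drawn down at random to 3000 UMIs, which left 2107 spots in NCD and 3538 in HFD. At that depth Hamp was found in 99.7% of spots in NCD and 75.7% in HFD. A spot held a median of 11 UMIs of Hamp in NCD, with a 10th percentile of 5 and a 90th of 18, and a median of 1 UMI in HFD, with 0 and 4. The middle ranges of the sections thus did not meet, although single HFD spots reached 15 UMIs. Hamp2 was found in 12.1% of NCD spots and 38.6% of HFD spots, Tfrc in 0.807% and 4.27%, and Cp in 52.1% and 81.7%. Tfr2 was found in 51.0% and 46.2%, and Slc40a1 in 25.4% and 17.2%. These shares kept the order of the pooled levels, while Trf, Fth1 and Ftl1 were in 100% of spots of both sections.

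**Figure D2:**
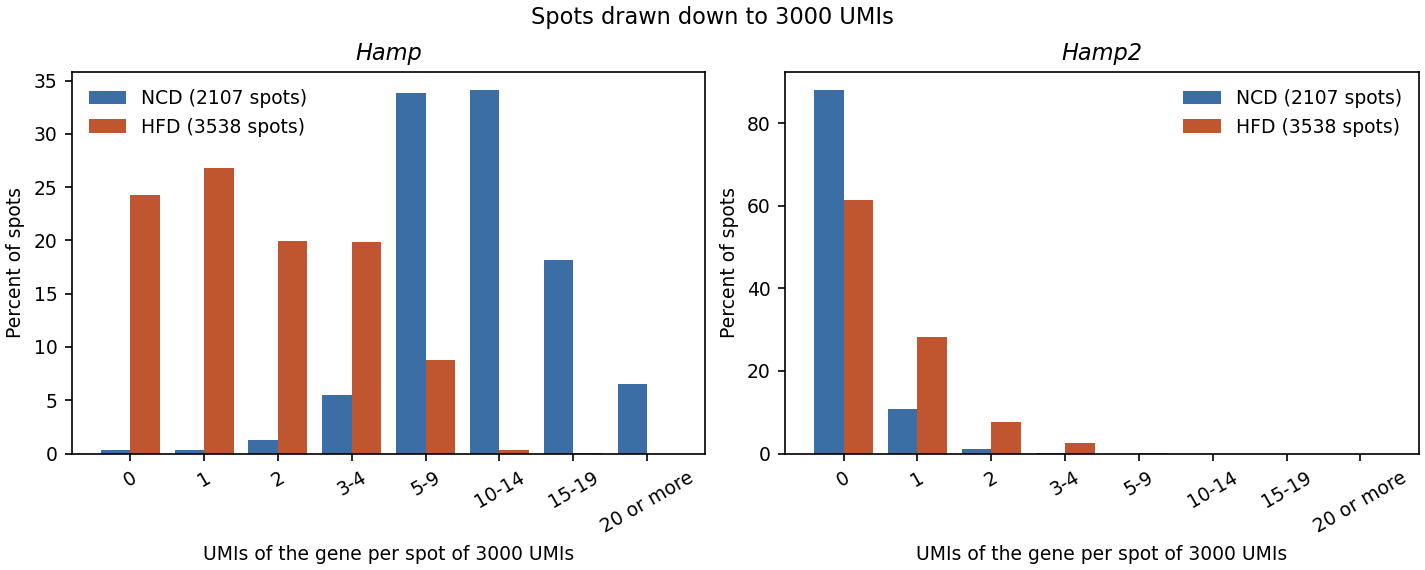
Percent of spots (bars) by the number of UMIs of Hamp and of Hamp2 in each spot, after spots were drawn down to 3000 UMIs, for 2107 NCD and 3538 HFD spots. NCD spots peak at 10 to 14 UMIs of Hamp and HFD spots at 1 UMI.

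Without that step the share of spots followed depth. Tfr2 was found in 58.0% of all NCD spots and 93.1% of all HFD spots, and Slc40a1 in 39.7% and 64.7%, the reverse of the order at equal depth. The spread between spots at equal depth was read as the variance over the mean, which is 1 for counting noise alone and grows with the level of a gene, so that it ranks neither genes nor sections of different level. It was 2.38 in NCD and 1.79 in HFD for Hamp, 1.10 and 1.18 for Hamp2, and 1.11 and 1.08 for Slc40a1. Trf stood at 1.32 and 1.28, Fth1 at 1.36 and 1.52 and Ftl1 at 1.34 and 1.77. For Tfrc, Tfr2 and Cp it lay between 0.99 and 1.04 in both sections. Counts as low as those of Tfrc would hide a spread. Cp in HFD had a mean of 1.76 UMIs per spot and stood at 1.02, while Hamp in HFD, with a mean of 1.89, stood at 1.79.

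Position in the lobule is a known axis of liver function, from the portal vein, where blood enters, to the central vein, where it leaves. Spots with at least 1000 UMIs, 2852 in NCD and 3590 in HFD, were ordered by the log2 ratio of the UMIs of 8 pericentral genes to those of 10 periportal genes, with 1 added to each sum, and were put into 3 equal classes per section. None of the 9 genes is in this score. The classes are ranges of a score rather than cell types, and 18.8% of NCD spots and 24.1% of HFD spots lay within 0.25 of a boundary. As a description of the score, its gene Glul measured 141.5 CPM in the periportal and 1465 CPM in the pericentral class of NCD, and 122.4 CPM and 1026 CPM in HFD. Median depth in the periportal, midlobular and pericentral classes was 4629, 7686 and 7806.5 UMIs in NCD and 24744, 14696 and 16783.5 UMIs in HFD. The order of depth along the lobule thus differed between the sections.

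Of the 9 genes, 0 were at least 1.5-fold higher in the pericentral than in the periportal class of NCD and 1 was at least 1.5-fold lower, against 7.06% and 2.73% of 7725 genes. In HFD, 0 were higher and 2 were lower, against 4.75% and 4.2% of 10796 genes. The gene lower in NCD was Hamp2, and those in HFD were Hamp and Hamp2, joined at equal depth by Tfrc, which brought the count to 3. Hamp2 was thus lower near the central vein in both sections, and Hamp joined it in HFD. Hamp in NCD had a log2 ratio of -0.037 (-0.060 to -0.015), and the alternatives gave lower values, from -0.29 to -0.085, all within 1.5-fold. Tfrc in NCD had a log2 ratio of -0.54 (-1.36 to 0.28), which the depth does not separate from 0. It passed 1.5-fold with other score genes at -0.92, with the outer 5th parts at -0.91 and at equal depth at -0.85. Drawing down left a mean of 0.0081 UMIs of Tfrc per spot in NCD and 0.044 in HFD. Its values at equal depth thus rest on few UMIs of 1 draw and are uncertain in both sections.

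Hamp measured 3650 CPM in the periportal, 4589 CPM in the midlobular and 3557 CPM in the pericentral class of NCD. In HFD the values were 745.2 CPM, 589.5 CPM and 396.8 CPM. The shapes differed: NCD was highest in the middle, and HFD was highest next to the portal vein and 1.88-fold lower in the pericentral class. In 9 bins of the score, Hamp in NCD went from 3259 CPM in bin 1, the most periportal, to 4875 CPM in bin 6 and down to 2324 CPM in bin 9. In HFD it was 761.0 CPM in bin 1 and lower in each further bin, with 292.1 CPM in bin 9. Bin 9 was the lowest in both sections. Hamp also differed with spot depth. In NCD it measured 3587 CPM in spots with 3000 to 10000 UMIs, 3495 CPM at 10000 to 20000 and 4570 CPM above that. In HFD the values were 738.7 CPM, 633.0 CPM and 571.3 CPM. The part of depth in the shapes was not tested. Whether the shapes differ beyond 1 section of each diet was not tested.

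Hamp2 measured 67.2 CPM, 61.9 CPM and 35.1 CPM from the periportal to the pericentral class of NCD and 218.5 CPM, 170.8 CPM and 112.7 CPM in HFD. Its log2 ratio of the pericentral to the periportal class was -0.94 in NCD and -0.95 in HFD, and at equal depth -1.27 and -0.84. Its level was lower near the central vein in both sections under either choice, and the slopes were not tested against each other. The share of Hamp2 in the UMIs of the pair was 1.81% in the periportal and 0.978% in the pericentral class of NCD, and 22.7% and 22.1% in HFD. The share was lower toward the central vein in NCD and nearly level in HFD.

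**Figure D3:**
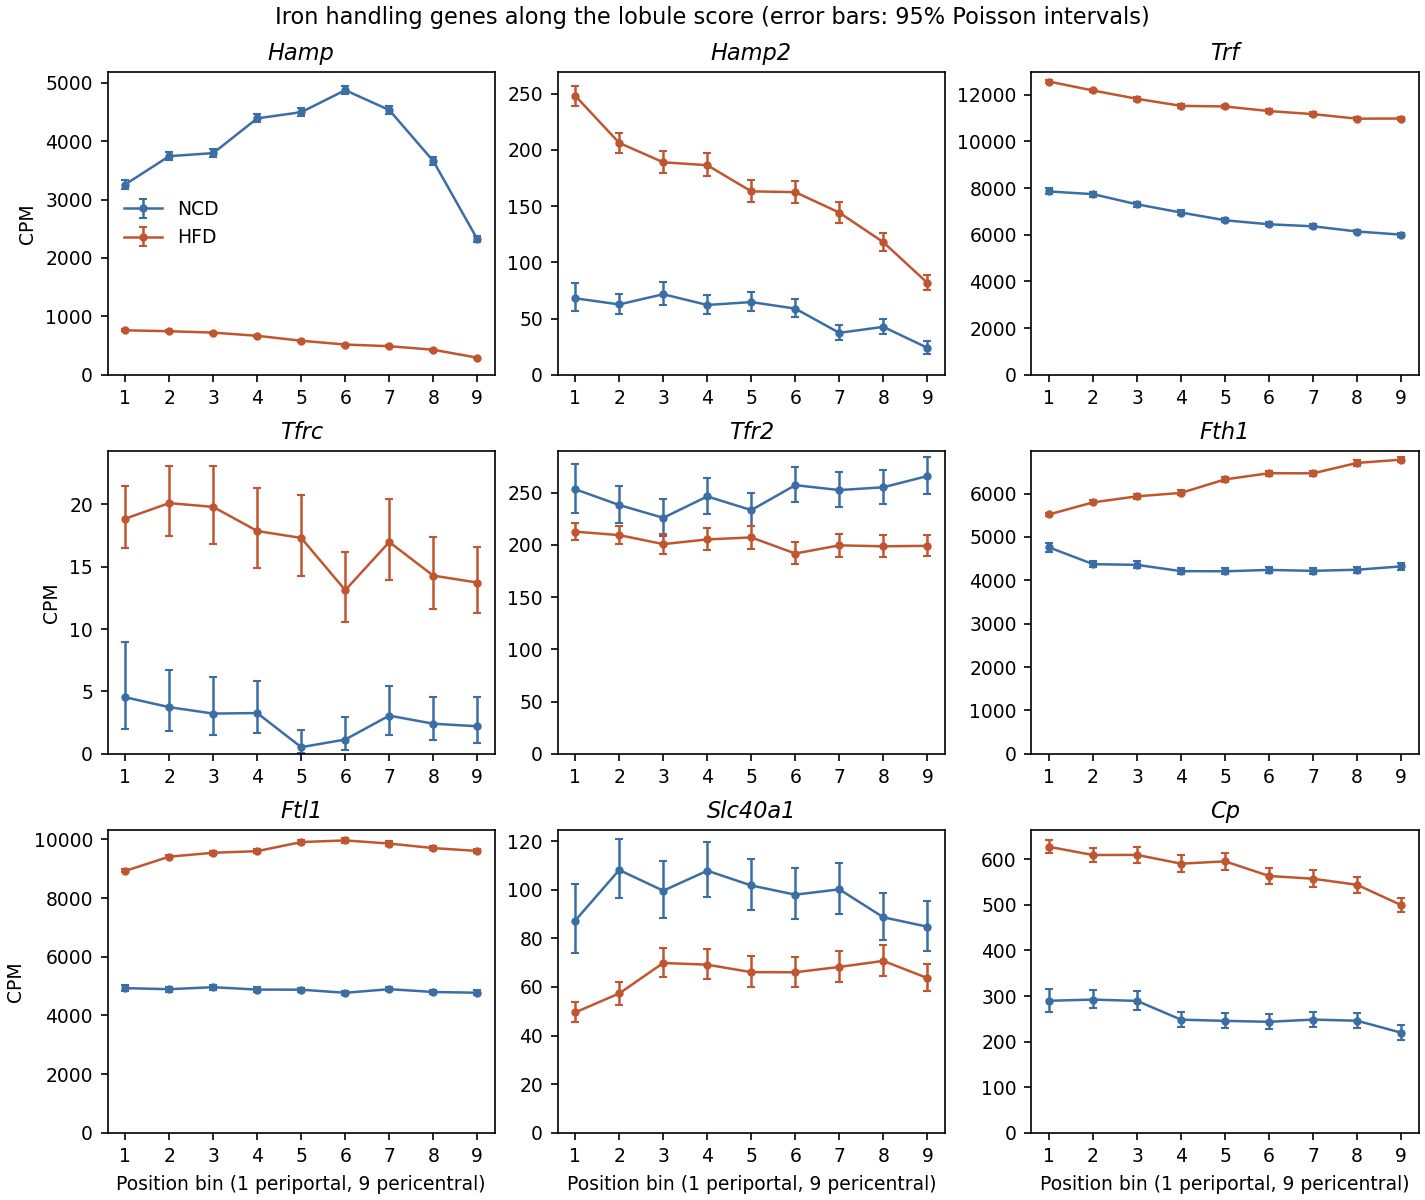
CPM of each of the 9 genes in 9 bins of the lobule score, from periportal (1) to pericentral (9), in NCD (blue) and HFD (orange), with 95% Poisson intervals as error bars and axes from 0. Hamp peaks in bin 6 in NCD and in bin 1 in HFD, and Fth1 in HFD is highest in bin 9.

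Transferrin and ceruloplasmin, both secreted by hepatocytes, were higher near the portal vein in both sections. Trf measured 7602 CPM in the periportal and 6173 CPM in the pericentral class of NCD and 12239 CPM and 11035 CPM in HFD, log2 ratios of -0.30 and -0.15. Cp measured 290.6 CPM and 238.8 CPM in NCD and 616.7 CPM and 531.8 CPM in HFD, log2 ratios of -0.28 and -0.21. These slopes were shallow beside that of Hamp2. Tfrc in HFD measured 19.5 CPM in the periportal and 14.9 CPM in the pericentral class, a log2 ratio of -0.39 (-0.59 to -0.19). At equal depth, with few UMIs left, its log2 ratio was -0.999. Tfr2 was nearly level, with 237.2 CPM and 257.6 CPM in NCD and 208.4 CPM and 199.2 CPM in HFD.

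The ferritin heavy chain had little slope in NCD and a pericentral excess in HFD, and the light chain had little slope in either. Fth1 measured 4457 CPM in the periportal and 4258 CPM in the pericentral class of NCD, a log2 ratio of -0.066, and 5722 CPM and 6660 CPM in HFD, a log2 ratio of 0.22. Ftl1 measured 4930 CPM and 4826 CPM in NCD, a log2 ratio of -0.031, and 9253 CPM and 9717 CPM in HFD, a log2 ratio of 0.071, with its highest class in the middle at 9824 CPM. These ratios stand next to a median log2 ratio of 0.077 over all genes of that section and 0.12 in NCD. Accordingly the UMIs of Ftl1 per UMI of Fth1 were 1.62 in the periportal and 1.46 in the pericentral class of HFD, and 1.11 and 1.13 in NCD. Slc40a1 measured 100.02 CPM and 91.4 CPM in NCD, a log2 ratio of -0.13 (-0.27 to 0.0099), and 57.5 CPM and 67.4 CPM in HFD, a log2 ratio of 0.23 (0.13 to 0.33). The slope in HFD was not kept at equal depth, where its log2 ratio was 0.054, and the difference between the sections was not tested.

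The difference between the diets was seen at each lobule position. Hamp was 4.90-fold lower in HFD in the periportal class, 7.78-fold lower in the midlobular class and 8.96-fold lower in the pericentral class. Of these classes, the gap was widest in the pericentral class. Among the 9 bins of the score it was not widest in bin 9, the most pericentral. Hamp measured 4875 CPM in NCD and 517.4 CPM in HFD in bin 6, and 2324 CPM and 292.1 CPM in bin 9. Classes and bins were cut within each section. The pericentral class began at a score of 1.14 in NCD and 0.63 in HFD. The log2 ratio of HFD to NCD in the periportal, midlobular and pericentral classes was 1.70, 1.46 and 1.68 for Hamp2 and 0.69, 0.78 and 0.84 for Trf. It was 0.36, 0.57 and 0.65 for Fth1, which passed 1.5-fold in the pericentral class. It was -0.80, -0.61 and -0.44 for Slc40a1, which was within 1.5-fold in the pericentral class. Each of the 9 genes kept in every class the direction it had over the whole section.

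The levels of the genes were also set beside markers of other cell types, which share spots with hepatocytes. Among spots with at least 3000 UMIs, the 10% with the highest level of a marker list were set against the others of that section, 211 against 1896 spots in NCD and 354 against 3184 in HFD. Slc40a1 measured 153.3 CPM in spots rich in Kupffer cell markers and 92.8 CPM in the others in NCD, a log2 ratio of 0.72 (0.54 to 0.90). In HFD it measured 92.6 CPM and 60.1 CPM, a log2 ratio of 0.62 (0.50 to 0.75). The exporter was thus higher in spots rich in this list in both sections. Kupffer cells are the resident macrophages of the liver, but Timd4 and Marco of their list were lower in HFD, so the list does not name the macrophages of these spots. The spots of NCD rich in this list had a lower median depth, 6213 UMIs against 10396 UMIs, and those of HFD had 18132.5 UMIs against 18861 UMIs. In spots rich in endothelial markers, the log2 ratio of Slc40a1 was 0.24 (0.021 to 0.46) in NCD and 0.20 (0.054 to 0.34) in HFD, at median depths of 5649 UMIs against 10544.5 UMIs and 15497 UMIs against 19219 UMIs. In spots rich in markers of lipid-associated macrophages it was -0.14 (-0.37 to 0.075) in NCD and -0.23 (-0.37 to -0.094) in HFD, and in spots rich in acute phase transcripts 0.27 (0.059 to 0.47) and -0.22 (-0.37 to -0.079). In spots rich in red blood cell markers both intervals held 0.

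Hamp had other neighbours. In spots rich in Kupffer cell markers it measured 3832 CPM against 4005 CPM in NCD, a log2 ratio of -0.064. In HFD the values were 527.1 CPM and 605.7 CPM, a log2 ratio of -0.20. Hamp measured 2798 CPM in NCD spots rich in markers of lipid-associated macrophages and 4091 CPM in the others, a log2 ratio of -0.55. In HFD it measured 546.6 CPM and 605.6 CPM, a log2 ratio of -0.15. Most of this list in NCD came from Spp1 at 43.5 CPM and Cd9 at 21.6 CPM, of 70.4 CPM in all. The list thus does not name the cells of these NCD spots. Hamp was lower in spots rich in this list in both sections. The markers of the list were themselves densest in the periportal class, with 138.6 CPM there and 31.7 CPM in the pericentral class of NCD. In HFD they stood at 416.1 CPM and 152.1 CPM, and there Hamp was also highest in the periportal class, at 745.2 CPM. In spots rich in red blood cell markers, Hamp measured 3405 CPM against 4062 CPM in NCD and 666.1 CPM against 592.7 CPM in HFD. With the top 5% of spots in place of the top 10%, the HFD difference was gone, at a log2 ratio of 0.00080. In spots rich in acute phase transcripts, Hamp measured 3755 CPM against 4011 CPM in NCD and 708.9 CPM against 584.6 CPM in HFD. In HFD spots rich in endothelial markers it measured 497.6 CPM against 607.5 CPM, and in NCD 4066 CPM against 3989 CPM. All of these differences were small beside that between the sections.

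The genes most like each member in their pattern over spots were found by Pearson correlation of log counts at 3000 UMIs, among genes of at least 50 CPM, for members with at least 100 CPM in both sections. These values describe spots of 1 section that share a library, and in counts this sparse weak values carry no finding. For Hamp the closest 5 of 1971 genes in NCD were Wfdc21 (r = 0.32), Mup7, Scd1, Apoa2 and Cps1, and of 2178 genes in HFD Serpina1c (r = 0.31), Alb, Mup3, Serpina3k and Apoc3. For Trf they were Alb (r = 0.34), Mup20, Serpina1e, Mup3 and Cyp2f2 in NCD and Mup20 (r = 0.26), Alb, Gc, Ahsg and Hpx in HFD. Fth1 was closest to Fabp1 (r = 0.21), mt-Nd4, mt-Co1, Gpx1 and Ftl1 in NCD and to Ftl1 (r = 0.28), Mgst1, Cyp2e1, Fabp1 and Cyp3a11 in HFD. Ftl1 was closest to mt-Co1 (r = 0.18), Fabp1, Fth1, mt-Co2 and mt-Atp6 in NCD and to Fth1 (r = 0.28), Gpx1, B2m, Gstm1 and Selenop in HFD. Between the ferritin chains, r was 0.14 in NCD. For Tfr2 no gene passed r = 0.072 and for Cp none passed r = 0.13. Between Hamp and Fth1, r was 0.040 in NCD and -0.13 in HFD, and between Hamp and Hamp2 it was 0.034 and 0.11.

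Several of the 9 genes are also controlled after transcription, by proteins that bind iron-responsive elements, short hairpins of the untranslated regions (UTRs), when iron is scarce. In messages of the ferritin chains and ferroportin the hairpin lies before the coding part and its binding blocks translation, and in that of Tfrc hairpins after the coding part protect the RNA from breakdown. The sites are shown because RNA counts bear on this control for Tfrc but not on translation of the others. They were found in GENCODE M21 transcripts as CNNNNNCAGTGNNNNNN, read on the transcript strand, where the 5 bases on either side of the CAGTGN loop can pair (A with T, G with C or T). Capitals mark the loop.
Tfrc 3′ UTR, chr16:32631219-32631248, plus strand: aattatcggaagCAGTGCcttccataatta
Tfrc 3′ UTR, chr16:32631598-32631627, plus strand: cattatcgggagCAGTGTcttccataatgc
Tfrc 3′ UTR, chr16:32631663-32631692, plus strand: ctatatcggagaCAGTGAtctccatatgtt
Tfrc 3′ UTR, chr16:32631710-32631739, plus strand: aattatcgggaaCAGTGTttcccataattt
Fth1 5′ UTR, chr19:9982732-9982761, plus strand: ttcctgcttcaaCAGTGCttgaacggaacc
Ftl1 5′ UTR, chr7:45459778-45459807, minus strand: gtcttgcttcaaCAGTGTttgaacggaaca
Slc40a1 5′ UTR, chr1:45925464-45925493, minus strand: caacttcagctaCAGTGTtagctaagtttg
The letters were found 4 times in the 3′ UTR of Tfrc and 1 time each in the 5′ UTR of Fth1, Ftl1 and Slc40a1. Of 21901 coding genes, 31 (0.142%) held them in a 5′ UTR and 129 (0.589%) in a 3′ UTR.

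The wider iron pathway was described by 66 other genes in 5 lists, of which 62 had at least 100 UMIs. Of these 62, 15 were at least 1.5-fold higher in HFD, 2 were at least 1.5-fold lower and 45 were neither, with a median log2 ratio of 0.20 beside 0.24 over all genes. Over all 11913 genes, 25.5% were higher and 5.01% lower. The medians of the lists, whose differences were not tested, were 0.21 for hepcidin control, 0.45 for uptake and release, 0.15 for sensing and storage partners, 0.46 for heme and hemoglobin scavenging and 0.020 for mitochondrial iron and heme synthesis.

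In the list of hepcidin control, 3 of 21 measured genes were higher, 1 was lower and 17 were neither, against 25.5% higher and 5.01% lower over all genes. Bmp6, a BMP made by sinusoidal endothelium that raises hepcidin, measured 6.20 CPM in NCD and 2.72 CPM in HFD, a log2 ratio of -1.19 (-1.49 to -0.89). Bmp2, a BMP from the same cells, measured 17.4 CPM in both sections. The endothelial list had a higher sum in HFD, with 3 of 6 genes at least 1.5-fold higher, 0 lower and 3 neither. Its part in the level of Bmp6 was not tested. The BMP coreceptor gene Hjv measured 41.5 CPM and 61.7 CPM, the sensor gene Hfe 44.4 CPM and 49.4 CPM, and Tmprss6, whose protease restrains hepcidin, 224.4 CPM and 273.3 CPM, all within 1.5-fold. The BMP signal carrier Smad1 measured 8.64 CPM and 7.88 CPM and Atoh8, a target of this signal, 13.9 CPM and 12.4 CPM. The 3 higher genes were Socs3, a target of interleukin 6 signals, at 2.41 CPM and 6.41 CPM, the receptor gene Il6ra at 11.7 CPM and 20.3 CPM, and the inhibitory Smad6 at 5.58 CPM and 8.64 CPM. The interval of the log2 ratio of Atoh8, -0.34 to 0.0050, holds 0. Id1 and Smad7, also targets of this signal and named after their values were seen, were higher but within 1.5-fold, unlike Smad6, which passed it. Id1 measured 13.3 CPM and 17.8 CPM and Smad7 7.47 CPM and 10.2 CPM.

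In the list of uptake and release, 4 of 8 measured genes were higher and 0 lower, against 25.5% and 5.01% of all genes. Steap4, a metalloreductase gene, measured 35.7 CPM in NCD and 157.3 CPM in HFD, a log2 ratio of 2.14. Slc39a14, which imports iron not bound to transferrin, measured 53.2 CPM and 100.03 CPM, a log2 ratio of 0.91, and Heph, a ferroxidase gene, 1.03 CPM and 1.90 CPM. The other, Slc11a2, an iron importer named after its values were seen, measured 11.1 CPM and 17.9 CPM. Steap4 thus had the highest ratio of the list, while Slc39a8, Steap2 and Steap3 were within 1.5-fold at 15.1 CPM and 16.8 CPM, 3.99 CPM and 3.26 CPM, and 7.54 CPM and 6.99 CPM. In the list of iron sensing and storage partners, none of 6 measured genes passed 1.5-fold in either direction, where 25.5% and 5.01% of all genes did. Ireb2, an iron regulatory protein gene, had the lowest ratio of HFD to NCD at 27.2 CPM and 19.4 CPM, and Pcbp1, an iron chaperone gene that serves ferritin, the highest at 141.7 CPM and 190.7 CPM. Aco1, the other regulatory protein gene, stood at 96.7 CPM and 113.3 CPM, Ncoa4, which takes ferritin to breakdown, at 75.5 CPM and 86.4 CPM, Fbxl5 at 15.4 CPM and 16.5 CPM, and Pcbp2 at 197.3 CPM and 176.0 CPM.

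**Figure D4:**
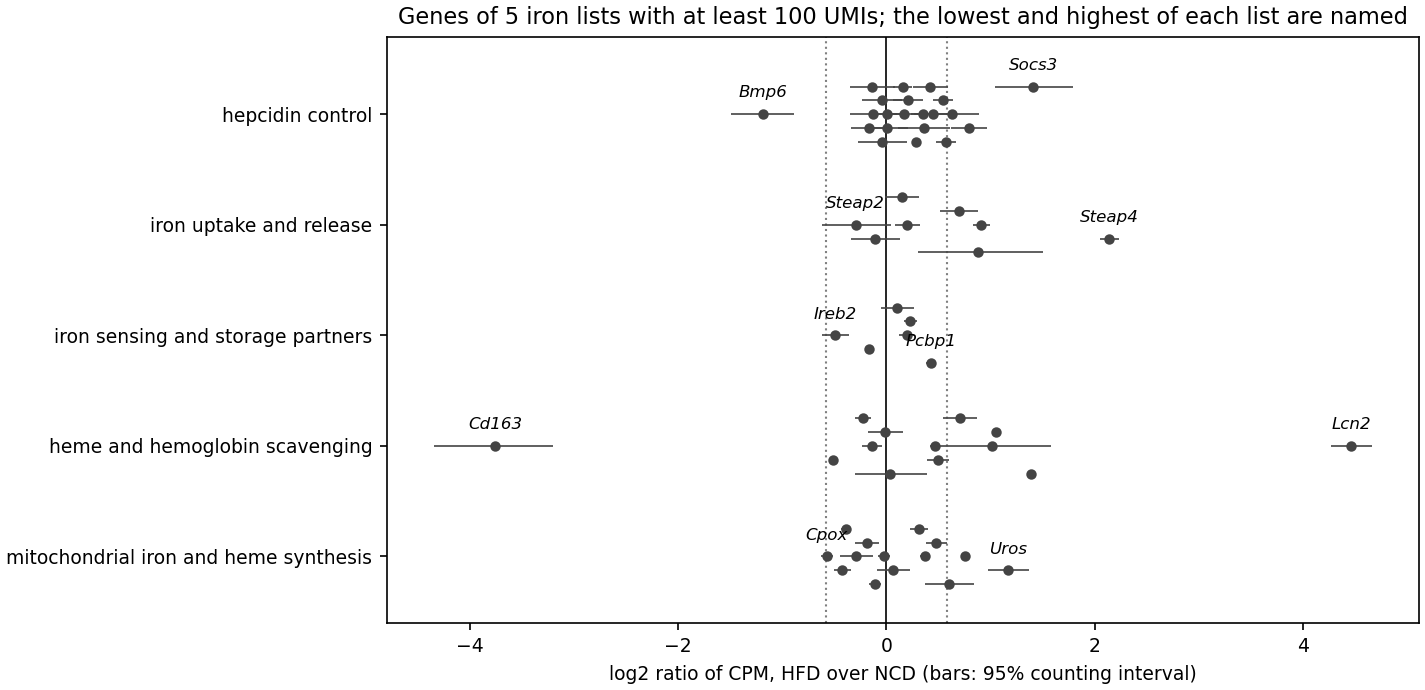
Log2 ratio of HFD to NCD (points) with 95% counting intervals (bars) for the 62 genes of 5 iron lists with at least 100 UMIs, the lowest and highest of each list named, with dotted lines at 1.5-fold. Lcn2 at 4.46 and Cd163 at -3.76 lie at the ends.

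In the list of heme and hemoglobin scavenging, 5 of 13 genes were higher, 1 was lower and 7 were neither, beside 25.5% higher and 5.01% lower among all genes. Lcn2, which binds iron-laden siderophores and is an acute phase product, measured 7.65 CPM in NCD and 168.7 CPM in HFD, 22.1-fold higher. The plasma scavengers Hp, of hemoglobin, and Hpx, of heme, measured 1954 CPM and 5130 CPM, and 2561 CPM and 5310 CPM. Hmox1, which opens the heme ring, measured 13.7 CPM and 22.3 CPM, and Flvcr1, named after its values were seen, 1.24 CPM and 2.51 CPM. Cd163, the macrophage receptor for hemoglobin bound to haptoglobin, was the lower one, at 5.99 CPM and 0.444 CPM, 13.5-fold lower. The secreted scavengers were thus higher and the macrophage receptor lower, next to a Kupffer cell list whose markers were split. Blvrb and Abcg2 were within 1.5-fold at 287.8 CPM and 202.3 CPM, and 72.6 CPM and 62.1 CPM.

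In the list of mitochondrial iron and heme synthesis, 3 of 14 genes were higher, 0 were lower and 11 were neither, beside the same 25.5% and 5.01% of all genes. The higher genes were Alas1, the first step of heme synthesis in liver, at 296.0 CPM in NCD and 500.4 CPM in HFD, Uros at 8.71 CPM and 19.6 CPM and Ppox at 6.75 CPM and 10.2 CPM. The lowest ratios were those of Cpox at 133.8 CPM and 89.9 CPM, Urod at 68.6 CPM and 51.2 CPM and Fdx1 at 183.8 CPM and 140.6 CPM. These ratios were within 1.5-fold.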

How the data were processed

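The authors deposited raw counts (UMIs) for each gene in each spot, which were used here for 1 NCD and 1 HFD section. Per the study's methods and the headers of the tissue tables, Space Ranger 1.3.1 quantified genes and identified spots, with mm10 per the labels and no normalization. The headers of the tables of all spots, used for spots off tissue, name Cell Ranger 4. The annotation release is not stated, so positions are from GENCODE M21.

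UMIs of a gene were summed over spots and divided by all UMIs of those spots. Sums have exact Poisson intervals, shares Clopper-Pearson intervals and ratios conditional binomial intervals, at 95%. Drawing down used seed 1. The steps were tested on simulated data. No test between diets was possible.

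The members and lists were chosen with earlier results of these data known. Named genes are the members, the 3 highest and 3 lowest ratios of each iron list among genes with at least 100 UMIs, 9 regulators and scavengers whatever their value, and the 5 genes most like each member. Id1, Smad7, Slc11a2, Flvcr1, Alad and Slc25a37, and single genes of the marker lists, fall outside this rule and were named after their values were seen. Alternatives changed the total, scaling, spots, depth, background, score genes and classes.

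The software was scipy 1.17.1, numpy 2.4.6, matplotlib 3.10.9 and pandas 2.3.3 under Python 3.11.15. Images and spot positions were not used.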

Additional observations from a re-analysis of the deposited data

Results flagged for a closer look

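For 3 genes, the log2 ratio of the pericentral to the periportal class had opposite signs in the sections, each with an interval away from 0. Tfr2 stood at 0.12 in NCD and -0.0658 in HFD, Fth1 at -0.0659 and 0.22, and Ftl1 at -0.0307 and 0.0707. The median over all genes was 0.12 in NCD and 0.077 in HFD, so Tfr2 in NCD and Ftl1 in HFD were not above the level of all genes. The difference between the sections was not tested for any of the 3 genes, and the sign of Tfr2 in NCD turned under 1 alternative total.

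Spots off tissue, used only in 2 alternative settings, held RNA of the iron handling genes: the 9 genes summed to 18569 CPM in the 1300 such spots of NCD and 23374 CPM in the 1398 of HFD. That NCD area held 19.1% of the UMIs of its slide, with Hamp at 4015 CPM there and 3949 CPM over tissue, and that of HFD held 2.93%, with Hamp at 617.3 CPM there and 598.5 CPM over tissue. A spot off tissue held a median of 3383 UMIs in NCD and 1175.5 UMIs in HFD, beside 4187.5 UMIs and 18549 UMIs over tissue. The order of the sections for Hamp was the same off tissue as over it, and this difference was not tested. Spots off tissue share the slide area and library of their section, so this order is not separate evidence.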

How the results depend on the processing

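Between the sections, 81 alternative values of the 9 genes gave 0 reversals, counted where the interval of the reported value excludes 0: 36 lay within the counting interval of the reported value and 45 outside it. Along the lobule, 108 alternatives gave 1 reversal, Tfr2 in NCD at -0.0045 with a total without mitochondrial genes and the 20 most abundant genes. In marker-rich spots, 90 gave 0 reversals, and 9 values with an interval that holds 0 turned their sign.

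The log2 ratio of Hamp, reported as -2.72, was -2.97 centred on the median of all genes, -2.53 as a mean of CPM per spot, -2.74 in spots with at least 3000 UMIs, -2.56 in spots drawn down, -2.70 without the 1% of spots with the most UMIs of the gene, and -2.46 in spots with 10000 to 20000 UMIs. Under that last setting 1 of the 9 genes was at least 1.5-fold lower in HFD. This setting, like the one that counted spots over and off tissue together, was chosen after seeing the data. Centred ratios gave 15.2% of all genes higher and 10.3% lower. In HFD, 3 of the 9 genes were lower pericentrally with spots drawn down, among them Tfrc, which had few UMIs left. In NCD, 2 of the 9 genes were lower pericentrally with the outer 5th parts, other score genes, spots drawn down, or that smaller total. With genes of at least 1000 UMIs, 2.52% of all genes were lower pericentrally in HFD. The cause was not tested.

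No paired analysis was possible because the sections come from different mice, with 1 section per diet. The depth of NCD limits Tfrc, with 74 UMIs.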

Other observations

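Of the genes that handle heme, 4 are described along the lobule, picked after their values were seen. Some others of their lists had intervals of the log2 ratio of the pericentral to the periportal class that hold 0. Further ones had intervals away from 0 in both sections. Among them, Slc25a37 stood at 0.65 in NCD and 0.74 in HFD, Alad at 0.68 and 0.56, and Hp at -0.20 and -0.44. Hpx, the plasma carrier of heme, measured 3375 CPM in the periportal and 2016 CPM in the pericentral class of NCD, and 6654 CPM and 3780.4 CPM in HFD. Blvrb, a biliverdin reductase gene, ran the other way, with 150.03 CPM and 432.6 CPM in NCD and 122.6 CPM and 314.6 CPM in HFD. Alas1 was also higher near the central vein, at 238.0 CPM and 362.8 CPM in NCD and 395.9 CPM and 625.6 CPM in HFD, as was Cpox, at 85.5 CPM and 176.3 CPM, and 75.6 CPM and 105.4 CPM. Hpx was thus higher near the portal vein and Blvrb, Alas1 and Cpox near the central vein, in both sections, with Cpox in HFD within 1.5-fold.

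The importer gene Slc39a14 measured 51.2 CPM in the periportal and 51.4 CPM in the pericentral class of NCD, and 115.6 CPM and 80.0 CPM in HFD. The log2 ratio of the pericentral to the periportal class was 0.0059 (-0.19 to 0.20) in NCD and -0.53 (-0.62 to -0.45) in HFD, both ratios within 1.5-fold, and the difference between the sections was not tested.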
